A study of Mus musculus with 36 samples.

Results

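Kidneys of XmO and XpO mice were compared on 6 of the 36 arrays of the series, 3 arrays per genotype, over the 23417 of 28885 probes that the authors' normalised table gives values for in kidney. XmO females carry a single X chromosome inherited from the mother (Xm) and XpO females a single X inherited from the father (Xp), so the comparison addresses whether the parental origin of the X, or anything else that separates these females, is seen in kidney expression. Each array was hybridised with RNA pooled from 3 mice (pools 1 and 2) or 2 mice (pool 3), all females of 12 weeks of age on the random bred MF1 background, with X chromosomes that go back to 1 progenitor. XmO mice were born to 40,XX mothers mated with 40,XPafY* fathers, whereas XpO mice and the 40,XX mice set beside them here (3 further pools) were born to 40,In(X)1H/XPaf mothers and 40,XY fathers. The parental origin of the X and the cross therefore cannot be told apart in any XmO against XpO difference. The autosomes of a random bred stock also vary from mouse to mouse, and each pool averages 2 to 3 animals.

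In mammals the X chromosome of an XO female stays active whichever parent it came from, and Xist, the RNA that coats an inactive X, is not expected from it. Genes that are imprinted, that is, expressed according to the parent of origin, are the classical way in which a maternal and a paternal X could give different transcript levels. The kidney is built of nephrons, in which filtrate from the glomerulus runs through proximal tubule, loop of Henle, distal convoluted tubule and collecting duct, and each segment has its own transport genes.

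Kidney markers were high on every kidney array and low in the other tissues. Umod, which encodes the urinary protein uromodulin of the loop of Henle, had a normalised log2 signal of 13.48 to 14.08 on the 9 kidney arrays and 5.32 to 6.03 on all arrays of the other tissues. Slc34a1, the phosphate transporter of the proximal tubule, had 14.21 to 14.70 in kidney and 5.40 to 7.53 elsewhere. The highest of the latter was on a muscle array, and most were between 5 and 6, the level called background below. Xist read 10.71 to 10.96 in the XX pools, 6.14 to 6.23 in the XpO pools and 5.91 to 6.18 in the XmO pools, as the genotype labels of the 9 arrays require. The median SD between the 3 pools of a genotype was 0.0797 in XmO and 0.0794 in XpO. Array pairs had Pearson correlations across probes of 0.9948 to 0.9955 within XmO, 0.9950 to 0.9965 within XpO and 0.9920 to 0.9948 between them.

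Few transcripts differed. In XmO kidneys 8 probes were higher and 13 lower than in XpO kidneys at a Benjamini-Hochberg adjusted p under 0.05 (limma moderated two-sided test with 3 genotype groups), and the largest was a 12.8-fold lower signal of Ndufb10. These 21 probes are 0.0897% of those tested, with 0.0342% higher and 0.0555% lower. An unadjusted p under 0.05 was reached by 2631 probes, 11.2% of those tested, and these were split into 1305 higher and 1326 lower. The log2 difference of 95.2% of the probes lay within 0.25 of 0, with a median of 0.00124. The pools of XmO lay apart from those of XpO in all 21 called probes and in 4180 probes, or 17.9%, in all. Of the called probes 16 carry 1 gene symbol, and they are described below with their log2 signal by pool. The number of calls moved with single pools. Leaving out XX pools 1, 2 and 3 in turn gave 39, 35 and 16 calls, leaving out the XpO pools in the same order gave 6, 13 and 9, and leaving out the XmO pools gave 17, 8 and 7.

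**Figure D1:**
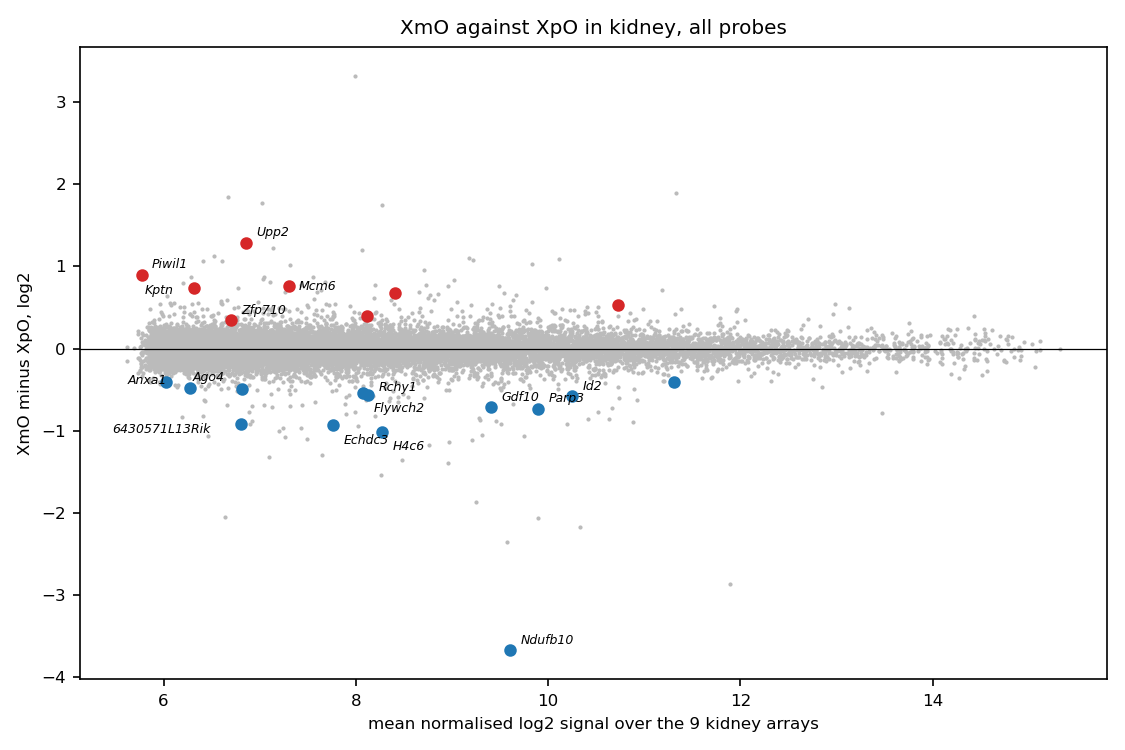
Log2 difference of XmO minus XpO (vertical axis) against the mean normalised log2 signal over the 9 kidney arrays (horizontal axis) for all 23417 probes, with the 8 probes higher in XmO in red and the 13 lower in blue. Ndufb10, at -3.67, is far below all other called probes, which lie between -1.01 and 1.29, and several uncalled probes (grey) have larger differences than most called ones.

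**Figure D2:**
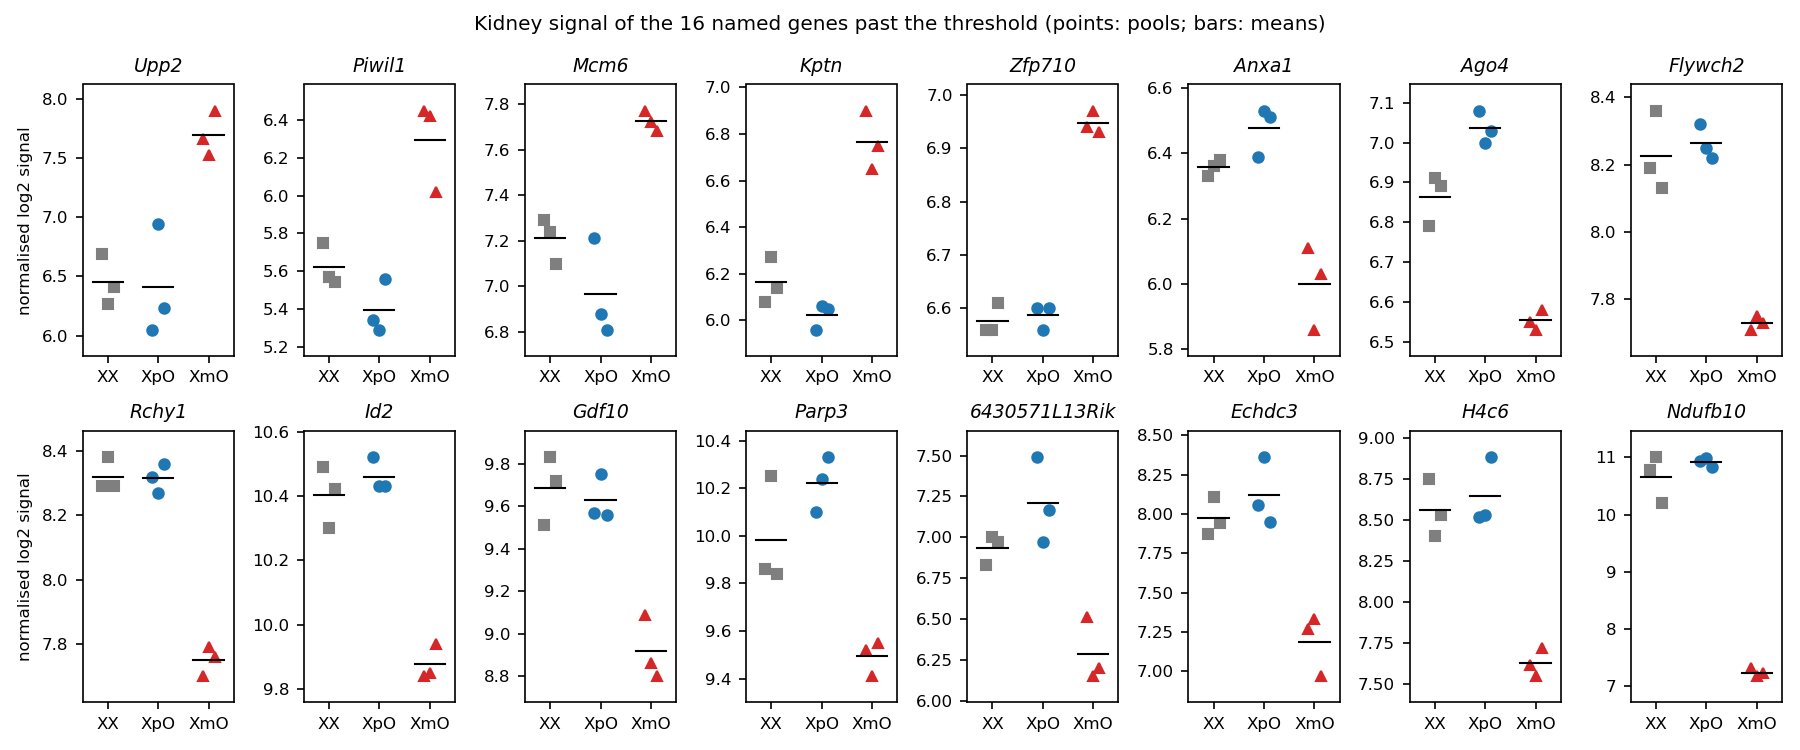
Normalised log2 signal (vertical axes, which do not start at 0) of the 16 named genes past the threshold in each kidney pool of XX (grey squares), XpO (blue circles) and XmO (red triangles) mice, with horizontal bars at the mean of 3 pools. The XmO pools lie apart from all XpO pools in each panel, and most XX pools are beside the XpO pools.

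Ndufb10, on chromosome 17, encodes an accessory subunit of respiratory complex I, the entry point of electrons from NADH into the mitochondrial chain. Its log2 signal was 10.94, 10.98 and 10.83 in XpO pools 1 to 3 and 7.32, 7.18 and 7.23 in XmO pools 1 to 3. XX pools read 10.78, 11.00 and 10.21. The XmO signal fell by 3.67 on the log2 scale (SE 0.152, adjusted p = 5.7e-07), and the pools of XmO and of XpO each differed among themselves by far less than that. The array holds a single probe with kidney values for this gene, so no second probe bears on it. The other 31 measured subunits of complex I had a median log2 difference of -0.03, and none passed. Ndufa6 (-0.48, SE 0.0811, adjusted p = 0.0613) and Ndufb5 (-0.44, SE 0.0845, adjusted p = 0.0839) were the nearest to the threshold, and in both the XmO pools lay below all XpO pools.

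The genes next to Ndufb10 on chromosome 17 are set beside it. Of the 15 measured protein-coding genes among the 10 on either side, 8 had an unadjusted p under 0.05, against 15.6% of all 11581 measured protein-coding genes, and none passed the adjusted threshold. Gfer, a sulfhydryl oxidase of the mitochondrial intermembrane space, is separated from Ndufb10 by 4 genes and read 11.02, 11.00 and 10.91 in XpO against 11.73, 11.70 and 11.65 in XmO pools (log2 difference 0.71, SE 0.128, adjusted p = 0.0711). Meiob lay lower in XmO (-0.26, SE 0.0644, unadjusted p = 0.00172) and Noxo1 higher (0.30, SE 0.0861, unadjusted p = 0.00503), so the 8 neighbours did not share a direction. Around all 16 named genes together, 32 of 181 measured neighbours had an unadjusted p under 0.05, or 17.7%, close to the 15.6% of all genes. Ago4 and Mcm6 had 5 each, of 13 and 12 measured neighbours. Flywch2 is also on chromosome 17, with 46 genes between it and Ndufb10, and 6430571L13Rik and Parp3 are on chromosome 9 with 16 genes between them.

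**Figure D3:**
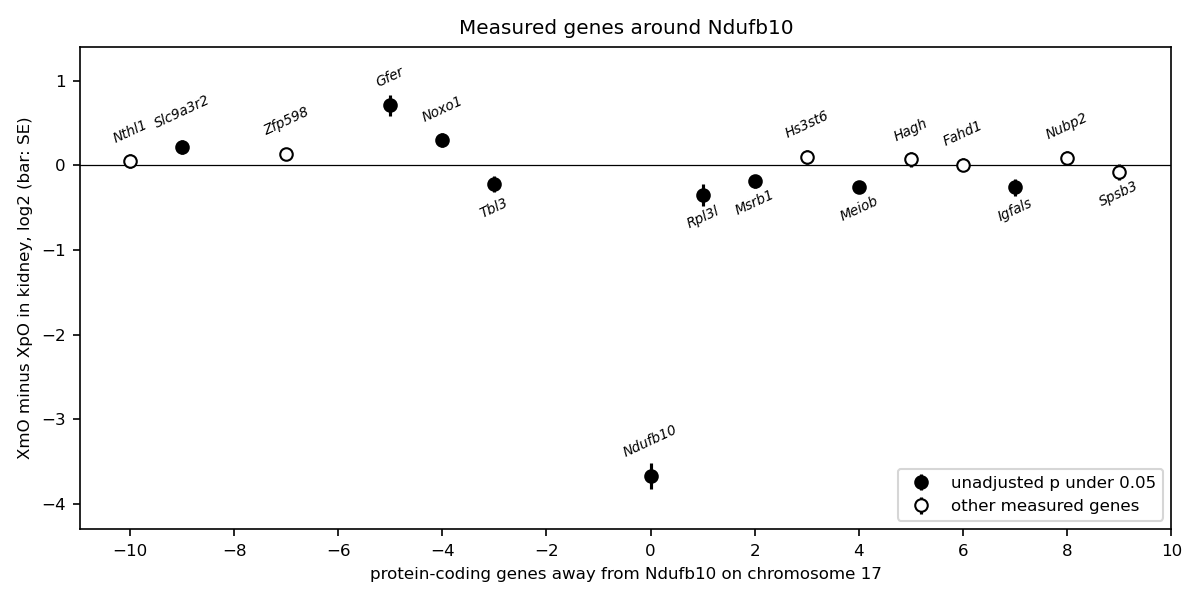
XmO minus XpO log2 difference in kidney with its SE (vertical axis) of the measured protein-coding genes within 10 genes of Ndufb10, by their order on chromosome 17 (horizontal axis, genes away from Ndufb10). Filled points have an unadjusted p under 0.05: Gfer at 0.71 and Noxo1 at 0.30 are above 0, and Meiob at -0.26 and Rpl3l at -0.35 below it.

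The called probes of Rchy1, H4c6, Id2, Ago4 and Parp3 were lower in XmO kidneys. In each case the change was larger than the spread between pools, which the test itself selects for. Rchy1, a ubiquitin ligase known to act on p53, read 8.32, 8.27 and 8.36 in XpO pools against 7.70, 7.79 and 7.76 in XmO pools, a log2 difference of -0.57 (SE 0.0606, adjusted p = 0.00642). H4c6, which encodes histone H4, read 8.52, 8.53 and 8.88 against 7.62, 7.55 and 7.72, a difference of -1.01 (SE 0.110, adjusted p = 0.00642). A second H4c6 probe, near background at 6.41 to 6.79, had a difference of 0.08 (SE 0.0965), and copies of the histone H4 gene are so alike that the probe may read several of them. Id2, an inhibitor of basic helix-loop-helix transcription factors, read 10.52, 10.43 and 10.43 in XpO pools and 9.84, 9.85 and 9.94 in XmO pools (-0.58, SE 0.0677, adjusted p = 0.0107). Its second probe, of similar brightness, gave -0.17 (SE 0.114), with XmO pools from 10.31 to 10.78 that overlapped the XpO pools, so the Id2 difference was seen by only 1 of its 2 probes. Ago4, an Argonaute protein of the small RNA pathway, read 7.08, 7.0 and 7.03 against 6.55, 6.53 and 6.58 (-0.49, SE 0.0595, adjusted p = 0.0146), whereas its 2 other probes gave 0.13 and -0.10. Parp3, a poly(ADP-ribose) polymerase of DNA repair, read 10.10, 10.24 and 10.33 against 9.52, 9.41 and 9.55 (-0.73, SE 0.106, adjusted p = 0.0332). In the XX pools Ago4 lay between both groups, and the other 4 genes overlapped the XpO pools.

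The other named genes that fell in XmO kidneys were of mixed function. Echdc3, a member of the enoyl-CoA hydratase family, read 8.06, 8.36 and 7.95 in XpO pools and 7.27, 7.33 and 6.97 in XmO pools, a log2 difference of -0.93 (SE 0.119, adjusted p = 0.0150). Gdf10, a secreted factor of the TGF-beta superfamily, read 9.57, 9.75 and 9.56 against 9.09, 8.86 and 8.80 (-0.71, SE 0.0994, adjusted p = 0.0268), and its second probe, near background, gave -0.09. Anxa1, an annexin known for curbing inflammation, had a low signal of 6.39, 6.53 and 6.51 against 6.11, 5.86 and 6.03 (-0.48, SE 0.0743, adjusted p = 0.0447). The groups were apart in all 3 genes, with Anxa1 closest to background. Flywch2, read 8.32, 8.25 and 8.22 against 7.71, 7.75 and 7.73 (-0.54, SE 0.0696, adjusted p = 0.0154). The RIKEN transcript 6430571L13Rik read 7.49, 6.97 and 7.17 against 6.51, 6.15 and 6.20 (-0.92, SE 0.127, adjusted p = 0.0247). Flywch1, the gene beside Flywch2 and of the same family, had a smaller difference of -0.21 (SE 0.0722, adjusted p = 0.316). Of the probes without a gene symbol, ILMN_1251708 was bright and lower in XmO (11.38, 11.46 and 11.48 against 10.98, 11.09 and 11.04), and ILMN_2674763 was close to background (6.12, 6.23 and 6.22 against 5.73, 5.76 and 5.84).

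Among the genes that rose in XmO kidneys, Upp2, a uridine phosphorylase that splits uridine for salvage and breakdown, changed the most. It read 6.05, 6.94 and 6.23 in XpO pools and 7.66, 7.53 and 7.90 in XmO pools, a 2.45-fold higher signal (log2 difference 1.29, SE 0.194, adjusted p = 0.0395). Both further probes of the gene lay higher too, by 1.22 (SE 0.283, adjusted p = 0.139) and 1.06 (SE 0.236, adjusted p = 0.136), with XpO pool 2 the highest of its group on all 3 probes. Mcm6, a subunit of the replicative DNA helicase, read 7.21, 6.88 and 6.81 against 7.77, 7.72 and 7.68 (0.76, SE 0.0968, adjusted p = 0.0150), and its second probe gave 0.78 (SE 0.188, adjusted p = 0.158). Mcm6 was the one call among 13 measured cell cycle genes, whose median difference was 0.02. Kptn, part of the KICSTOR complex that conveys nutrient levels to mTORC1, read 5.96, 6.06 and 6.05 against 6.90, 6.65 and 6.75 (0.74, SE 0.0780, adjusted p = 0.00642). Its second probe, at 0.55 (SE 0.0888, adjusted p = 0.0527), was just outside the threshold. Both Kptn probes were near background in XpO pools, the second at 5.76, 5.64 and 5.89. Of the kidney probes 27.4% were dimmer than the called one and 2.68% dimmer than the second. Piwil1, a PIWI protein best known from male germ cells, had the dimmest signal of the called genes, with only 0.0769% of kidney probes dimmer, and read 5.34, 5.29 and 5.56 against 6.45, 6.42 and 6.02 (0.90, SE 0.115, adjusted p = 0.0150). Zfp710, a zinc finger gene, had the smallest change of the called genes, at 6.60, 6.56 and 6.60 against 6.94, 6.97 and 6.93 (0.35, SE 0.0556, adjusted p = 0.0447), and its second probe gave -0.07. ILMN_2698673, ILMN_2703392 and ILMN_1246137, which have no gene symbol, rose by 0.68, 0.53 and 0.40.

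The XX pools shared the cross of the XpO pools, and for 17 of the 21 called probes they overlapped the XpO pools and not the XmO pools. Among all probes with XmO and XpO pools apart, XX overlapped XpO only in 38.7%, XmO only in 14.6% and both in 39.7%. No called probe had XX pools that overlapped XmO only or both. The XX arrays are in the fit that made the calls, so the called probes and all probes apart are not a like comparison. Kptn, Ago4 and Anxa1 had their XX pools between both groups. For Ndufb10 the XmO to XX difference was -3.42 (SE 0.152, adjusted p = 6.47e-07) and the XpO to XX difference 0.25 (SE 0.152, adjusted p = 0.641), and for Upp2 they were 1.24 (SE 0.194, adjusted p = 0.0265) and -0.05 (SE 0.194, adjusted p = 0.960). These comparisons share arrays with each other and with the XmO to XpO comparison. Over all probes, 167 differed between XmO and XX (0.713%) and 5 between XpO and XX (0.0214%). Both counts moved with single pools. For XmO against XX the calls numbered 585, 29 and 79 when XX pools 1, 2 and 3 were left out in turn, and 53, 65 and 27 when XmO pools were. For XpO against XX they numbered 97, 5 and 31 when XX pools were left out, 2, 1 and 1 when XpO pools were, and 9 without XmO pool 2.

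No probe met the rule for a kidney-restricted difference, which asked for a call in kidney, a call for the difference in kidney less the mean difference in liver, muscle and brain (1 value per pool), the same sign in both and a larger size in kidney. The second test called 3 probes (0.0128%), 1 with a positive and 2 with a negative value, with 3003 at an unadjusted p under 0.05. One of them was Slc25a4, the mitochondrial ADP/ATP carrier of heart and muscle, which read 7.86, 7.96 and 7.99 in XpO and 7.67, 7.47 and 7.54 in XmO kidneys and had a difference of -0.38 in kidney (adjusted p = 0.0754), 0.06 in liver, 0.05 in muscle and 0.79 in brain. Its kidney difference less that of the other tissues was -0.70 (adjusted p = 0.0438). The probe with the positive value, ILMN_1214655 (0.97, adjusted p = 0.0389), was not raised in XmO kidneys. It was at background there, at 6.13, 6.09 and 5.93 in XpO and 5.94, 5.95 and 5.93 in XmO pools. Its difference was -0.11 in kidney and -3.06 in muscle. Among the 21 kidney calls the smallest adjusted p of this test was 0.0512. With all arrays in 1 fit, the spread is estimated over the arrays of every tissue, and arrays of the same pool are counted as independent. In that fit 25 probes passed and 4 were kidney-restricted, namely Id2, Upp2, ILMN_1251708 and ILMN_2674763. With the authors' normalised values 4 were, namely Id2, Mcm6, ILMN_1251708 and ILMN_2703392. That setting tested kidney less the other tissues only in the 17020 probes with values in all 4 tissues. It also included the muscle array of XpO pool 3. With the intensities, those 17020 probes gave 17 calls and 3 kidney-restricted probes, and the part of the normalisation was not tested by itself. The mean over the other tissues used the intensities of all of them, also where the authors' table leaves a probe blank, as it does for ILMN_2674763 in all 3 other tissues and for Upp2 in muscle.

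The values of the called genes in the other tissues are given beside those of kidney, and a call in one tissue and not in another is no test of a difference between them. XmO against XpO called 10 probes in liver (0.0503%), 3 in muscle (0.0138%) and 4 in brain (0.0161%). Of the 21 kidney calls, 8 passed with the same sign in at least 1 of these tissues. Ndufb10 did so in all, with differences of -2.93 in liver, -3.61 in muscle and -3.38 in brain. Echdc3 (-1.30), Piwil1 (1.65), Parp3 (-0.62), Ago4 (-0.51) and Flywch2 (-1.10) passed in liver, H4c6 (-0.94) in muscle and ILMN_2698673 (0.72) in brain. The Kptn probe called in kidney had differences of 0.54, 0.55 and 0.80 in liver, muscle and brain, none past the threshold, beside 0.74 in kidney, and the second Kptn probe passed in brain (0.94, SE 0.0757, adjusted p = 0.0103). Values near 0 or of opposite sign in some tissues were found among these genes as well as among the others. Flywch2 was at 0.53 in muscle and -0.03 in brain, and in brain Ago4 was at 0.05 and Echdc3 at -0.07. The called Upp2 probe was at 0.12 in liver and -0.15 in brain, with no values in muscle in the authors' table. Zfp710 was within 0.01 of 0 in all of them. Id2 was at -0.22 in liver, -0.07 in muscle and 0.52 in brain, and its kidney difference less theirs was -0.68 (SE 0.0987, adjusted p = 0.0512). Anxa1 was at 0.26 in liver and 0.06 in muscle, with -0.57 (SE 0.0933, adjusted p = 0.0613) for kidney less the others. Gdf10 was at 2.05 (SE 1.09) in brain, a value of large error.

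**Figure D4:**
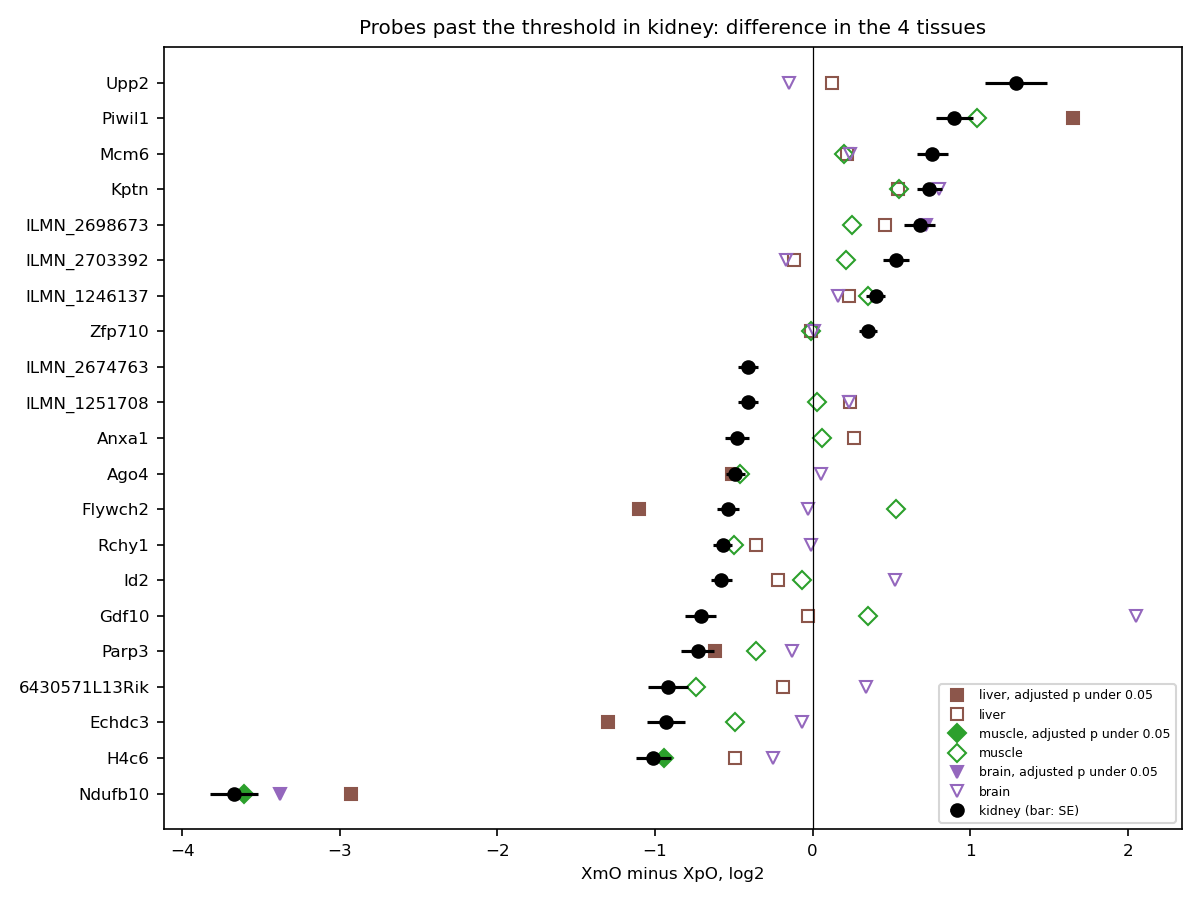
XmO minus XpO log2 difference (horizontal axis) of the 21 probes past the threshold in kidney (rows), in kidney (black, with SE) and in liver, muscle and brain where the authors' table gives values, filled where the adjusted p in that tissue is under 0.05. Ndufb10 lies between -3.67 and -2.93 in all 4 tissues, whereas Upp2 is at 1.29 in kidney and at 0.12 and -0.15 in liver and brain.

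Many large differences did not pass. A log2 difference over 1 in size was found for 37 probes, 16 higher and 21 lower, and 3 of these were called. Of the 34 others, 18 had overlapping pools and 16 had pools apart. Ntpcr, a nucleoside-triphosphatase gene on chromosome 8, read 5.66, 5.44 and 5.53 in XpO and 7.39, 7.33 and 7.43 in XmO kidneys, a difference of 1.84 (SE 0.451, adjusted p = 0.162), and its XX pools were split, at 7.95, 7.74 and 5.56. Csrp1, which encodes a LIM domain protein of smooth muscle, had the largest positive difference, 3.32 (SE 0.743, adjusted p = 0.137). Its XmO pools read 9.63, 10.02 and 9.40 and its XpO pools 5.73, 7.81 and 5.56. Cyp7b1, an oxysterol hydroxylase, read 8.98, 9.29 and 8.89 in XpO and 10.67, 9.49 and 10.31 in XmO kidneys (1.10, SE 0.340, adjusted p = 0.267).

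The X chromosome itself held no call in the fit with all 9 kidney arrays. The 490 X-linked probes (360 genes) had a median difference that differed from that of the autosomal probes by -0.000269 (exact permutation test over the 20 regroupings of 6 pools, two-sided, p = 0.9, where 3 against 3 cannot go below 0.1). Of these probes 51, or 10.4%, had an unadjusted p under 0.05, against 11.2% of all probes. Elf4, an ETS family transcription factor, had the smallest p, with a log2 difference of 0.28 (SE 0.0624, adjusted p = 0.136). It was near background, at 5.87, 5.92 and 5.97 in XpO pools and 6.15, 6.29 and 6.16 in XmO pools, with 5.27% of kidney probes dimmer. Erdr1, which lies in the pseudoautosomal region shared by X and Y, was read by a pair of probes: on the brighter one the XpO pools were at 8.48, 8.46 and 8.22 and the XmO pools at 7.66, 7.70 and 7.85 (-0.65, SE 0.148, adjusted p = 0.137), and on the other the groups overlapped (-0.19, SE 0.126). The brighter probe passed with the XmO and XpO arrays alone (adjusted p = 0.0187) and without XX pool 2 (adjusted p = 0.0143), so that this Erdr1 call depends on the XX arrays in the fit. It had differences of -0.57, -0.58 and -0.47 in liver, muscle and brain. Of 18 listed names of X-linked genes reported as imprinted, only 4 were measured, Xist among them. None of the 4 passed, and the median was -0.03. Their mean signal was near background, at 6.21, 6.18 and 6.20 in XpO pools and 6.07, 6.16 and 6.20 in XmO pools. That limits what these genes can show about parental origin. Among 32 measured autosomal imprinted genes 10 lay higher and 22 lower, with a median of -0.03 and no call. An unadjusted p under 0.05 was reached by 1 higher and 7 lower genes of this list, and by 15.6% of all genes. The list's mean was 8.29, 8.34 and 8.28 in XpO pools and 8.27, 8.25 and 8.18 in XmO pools.

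Groups of genes were described by the median over their members of the mean difference of each gene's kidney probes, beside a median of 0.00103 over all 11716 genes, of which 50.5% lay higher in XmO. Of 35 lists, 33 held no call, and complex I and the cell cycle held 1 each. The pool means of XmO lay apart from those of XpO in 11 of the 35 lists, so that pools apart are not particular to the lists described below. The lists mark either cell types or pathways, and in tissue RNA fewer cells of a type and less RNA per cell cannot be told apart.

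All 14 measured collecting duct genes lay higher in XmO kidneys, with a median log2 difference of 0.16 and none past the threshold. Their mean log2 signal was 8.52, 8.50 and 8.59 in the XpO pools, 8.70, 8.70 and 8.74 in the XmO pools and 8.58, 8.61 and 8.57 in the XX pools, so that the XmO pools lay apart from the other 6. The list's median was 0.03 in liver, 0.02 in muscle and 0.04 in brain, over the 5 to 8 genes with values there. Aqp4, a water channel of the principal cells' basolateral membrane, was the nearest to the threshold (0.59, SE 0.0993, adjusted p = 0.0617), at 9.29, 9.35 and 9.22 against 9.62, 10.07 and 9.93, and its XX pools were at 9.80, 9.71 and 9.75. Aqp4 passed with no filter on dim probes (adjusted p = 0.0391) and without XmO pool 1 (0.71, adjusted p = 0.0235). The mean over its 4 probes was 0.27. Scnn1b, a subunit of the epithelial sodium channel, had 0.30 (SE 0.0723, adjusted p = 0.161). In the papilla and urothelium list 8 of 9 genes lay higher, with a median of 0.22, but the list's pool means overlapped (7.52, 7.67 and 7.72 in XpO and 7.86, 8.05 and 7.63 in XmO). Its XX pools, at 7.88, 8.10 and 8.18, were higher than the XpO pools. Slc14a2, the urea transporter of the inner medulla, read 9.12, 9.38 and 9.55 in XpO and 10.33, 9.65 and 9.78 in XmO (0.57, SE 0.190, adjusted p = 0.300). How much inner medulla each pool held was not tested.

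The other nephron segments were closer together. Proximal tubule genes had a median of -0.02 (18 genes), glomerular genes -0.02 (10 genes) and distal convoluted tubule genes -0.00 (9 genes), and loop of Henle genes 0.08 (10 genes, 8 higher). Within the distal tubule, Stk39, the kinase that activates the thiazide-sensitive transporter, lay higher (0.54, SE 0.0992, adjusted p = 0.0738), at 8.92, 9.31 and 9.32 in XpO and 9.78, 9.72 and 9.65 in XmO. That transporter, Slc12a3, lay lower (-0.36, SE 0.0779, adjusted p = 0.124), at 13.02, 12.80 and 12.84 against 12.44, 12.57 and 12.55. Both missed the threshold, with pools that did not overlap. Cldn10, a tight junction protein of the thick ascending limb, had 0.48 (SE 0.112, adjusted p = 0.144) on the probe with the smallest p and 0.04 over its 5 probes.

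Circadian clock genes, the feedback loop of transcription factors that keeps daily time in most tissues, lay higher as a list. Of 14 measured genes 10 were higher in XmO kidneys and 4 lower, the median was 0.22, and none passed. The mean signal of the list was 7.88, 7.81 and 7.95 in XpO pools and 8.03, 8.10 and 8.18 in XmO pools, with XX pools at 7.84, 7.92 and 8.02. Usp2, a deubiquitinase gene driven by the clock, read 8.60, 8.66 and 8.48 against 9.03, 9.17 and 9.52 (0.66, SE 0.119, adjusted p = 0.0711). Per1 and Per2, the period genes that repress the loop, had 0.60 (SE 0.137, adjusted p = 0.137) and 0.62 (SE 0.192, adjusted p = 0.274). The output factor Dbp, at 9.19, 8.69 and 10.02 against 9.81, 10.48 and 10.72, had 1.04 (SE 0.558) with overlapping pools, and XX pool 1 was as low as 8.24 while XX pool 3 was at 10.93. The activators Arntl (-0.51, SE 0.258) and Npas2 (-0.42, SE 0.158) lay lower. In liver and muscle the list's median was 0.12 in each and in brain 0.02. The time of day at which each group was dissected is not given in the sources used here, and its part in these values was not tested.

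The upstream DNA of the clock genes is shown because CLOCK and its partner bind the E-box, a 6-base motif spelled CACGTG that reads the same on both strands. Of the 12 measured clock genes with a promoter window in RefSeq (GRCm38.p6), Per1 and Tef held it in the 250 bases before a transcription start. By windows of that length, 3 of the 17 of the clock genes held it, 2 of them of Tef, against 6.02% of all 32851 windows. One window of each gene is given 5′ to 3′ on the gene's strand, with the E-box in capitals, chr11:69098699-69098948, plus strand, for Per1 and chr15:81802423-81802672, plus strand, for Tef, which encodes a PAR bZIP factor.
Per1: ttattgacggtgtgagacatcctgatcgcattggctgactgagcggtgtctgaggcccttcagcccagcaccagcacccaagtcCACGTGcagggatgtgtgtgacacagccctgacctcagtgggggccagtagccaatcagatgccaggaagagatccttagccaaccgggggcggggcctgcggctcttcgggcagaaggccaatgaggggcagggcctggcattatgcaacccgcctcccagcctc
Tef: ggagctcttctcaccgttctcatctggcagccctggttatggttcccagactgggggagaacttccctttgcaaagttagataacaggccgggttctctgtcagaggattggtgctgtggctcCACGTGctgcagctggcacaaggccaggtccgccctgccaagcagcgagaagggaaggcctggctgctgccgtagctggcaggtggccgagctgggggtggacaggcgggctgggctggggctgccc
Per1 read 6.67, 6.35 and 6.28 in XpO kidneys and 6.82, 6.99 and 7.28 in XmO kidneys, and Tef 6.87, 6.56 and 6.73 against 6.95, 7.03 and 7.26 (0.36, SE 0.118, adjusted p = 0.294). Both had their groups apart. The match is a description of these letters and not a measure of binding.

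Adipocyte genes lay lower in XmO kidneys and varied widely between pools. All 9 measured genes were lower, with a median of -0.82 and none past the threshold. The list's mean was 7.89, 7.97 and 9.12 in XpO pools and 6.79, 8.43 and 6.52 in XmO pools, so that XmO pool 2 was above XpO pools 1 and 2, and in the XX pools it was 8.57, 9.71 and 9.52. In muscle 8 of the 9 genes lay higher in XmO, with a median of 0.57, and the medians in liver and brain were -0.06 (2 genes) and -0.05 (6 genes). Adipoq, the adipocyte hormone adiponectin, read 9.70, 9.50 and 10.82 in XpO and 6.64, 10.11 and 6.23 in XmO (-2.35, SE 0.847, adjusted p = 0.326). Ucp1, the uncoupling protein of brown fat, read 8.71, 9.39 and 12.55 against 7.46, 10.80 and 5.90. Fasn and Hp, like the list, were highest of the 6 pools in XpO pool 3 and lowest in XmO pool 3. Fasn, fatty acid synthase, read 10.83, 10.33 and 11.41 in XpO and 10.08, 10.47 and 9.35 in XmO (-0.89, SE 0.300, adjusted p = 0.306), and Hp, haptoglobin, read 8.03, 7.99 and 9.58 against 6.45, 8.23 and 6.31 (-1.53, SE 0.529, adjusted p = 0.313). The part of fat around the kidney in these values was not tested.

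Macrophage and dendritic cell genes were lower in 9 of 10 cases, with a median of -0.19 and none past the threshold. Their mean was 7.33, 7.30 and 7.38 in XpO pools against 7.18, 7.24 and 6.99 in XmO pools. Mrc1, the mannose receptor of tissue macrophages, had -0.42 (SE 0.111, adjusted p = 0.195), and Lyz2, lysozyme, -0.45 (SE 0.134, adjusted p = 0.253). The list's median was -0.02 in liver and in muscle and -0.18 in brain. Adrenal cortex genes, which mark carry-over of the gland beside the kidney, were at 6.56 to 6.63 on average in XpO and 6.49 to 6.55 in XmO pools, near background in both. Of the single genes with a small p, Hmox1, heme oxygenase, read 8.80, 8.93 and 8.68 against 8.10, 8.51 and 8.15 (-0.55, SE 0.122, adjusted p = 0.136), and Slc6a12, a betaine transporter of the medulla, 7.11, 7.18 and 7.06 against 7.91, 8.10 and 7.42 (0.69, SE 0.175, adjusted p = 0.174). Amino acid transport and metabolism had a median of 0.01 over 27 genes, the proteasome 0.02 over 31 and cytochrome P450 enzymes 0.01 over 16.

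**Figure D5:**
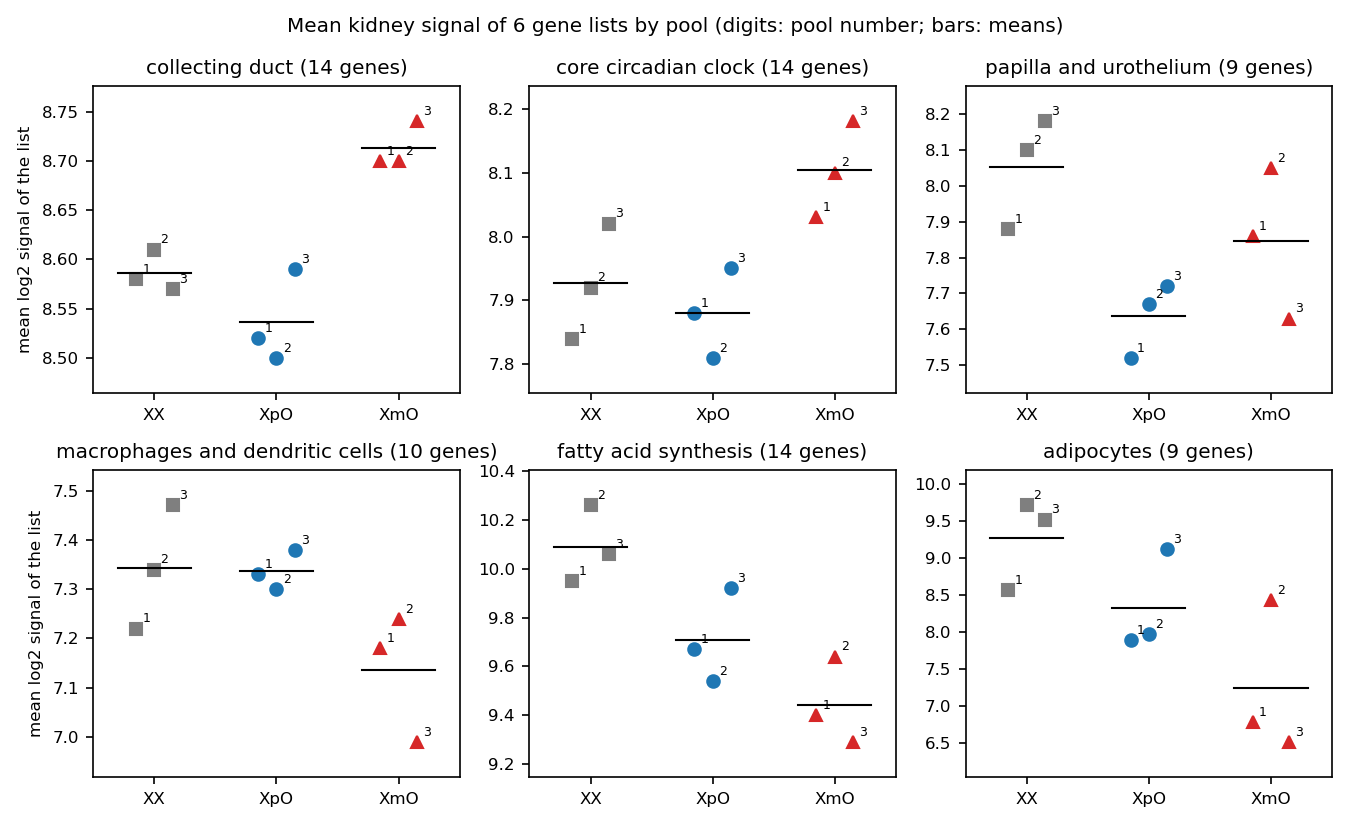
Mean normalised log2 signal of the measured genes of 6 lists (vertical axes, which do not start at 0) in each kidney pool, with the pool number beside the point and a bar at the mean of 3 pools. The XmO pools (red triangles) lie above all XpO pools (blue circles) for collecting duct genes, at 8.70 to 8.74, and for clock genes, and below them for macrophage genes, while both groups overlap in the papilla, fatty acid synthesis and adipocyte lists.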

How the data were processed

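Total RNA was extracted with Trizol and a column, and biotin-labelled cRNA was hybridised to Illumina mouse bead arrays. The deposited table of intensities holds bead summaries made in BeadStudio by the authors, before normalisation. The second deposited table holds log2 values that the authors normalised by quantiles with lumi, with blanks where a probe was not counted in a tissue. Neither holds authors' comparisons. From the intensities, none of which was under the floor of 1, log2 values were taken and quantile normalised over 35 arrays without background correction. The column of muscle XpO pool 3 (1 column) was not used, since its rank correlation with the authors' values was -0.0377. Median intensities of the kidney arrays were 63.2 to 70.4, and the number of arrays limits the precision. Nothing says how the mice of a pool were assigned, so p-values measure the spread between these pools.

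Kidney probes were fitted with limma 3.58.1 in R 4.3.3, with 3 genotype groups over 9 arrays and 6 residual degrees of freedom, and p-values were adjusted over all 23417 probes. For kidney less the other tissues, each tissue was first centred on the mean of its genotype means, because XpO pool 3 has no usable muscle intensities, and this step was added after the data were examined. That XpO value rests on liver and brain. Of the authors' probes 21014 carry 1 gene symbol, 6 several and 7865 none, and 20983 were matched to the RefSeq gene table of GRCm38.p6, used for names, chromosomes and gene order. Start positions in that table gave the gene order, and the coordinates of the promoter windows are from RefSeq (GRCm38.p6). Genes were named by rule: the 15 largest called differences per direction with pools apart, Xist, Erdr1 and Ndufb10, and up to 4 called, or else 2, of smallest p per list. No kidney-restricted probe was there to name. Ndufa6, Ndufb5, Dbp, Arntl, Npas2, Per2, Tef, Ucp1, Hp, Lyz2, Elf4, Slc25a4, Ntpcr, Csrp1, Msmo1, Fbxw5, the neighbouring genes and the probes without a symbol were named after their values were seen. The comparison, the lists and the tests were chosen with earlier results of these data known. Tables were made with pandas 2.3.3 under Python 3.11.15 and plots with matplotlib 3.10.9.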

Additional observations from a re-analysis of the deposited data

How the results depend on the processing

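The 21 kidney calls of XmO against XpO became 12 with median scaling, 35 with no filter on dim probes, 13 among probes brighter than the median, 59 with the XmO and XpO arrays alone and 14 with pool number as a replicate block, and from 6 to 39 leaving out 1 pool. Same-numbered XmO and XpO kidney pools deviated with correlations of 0.007, -0.061 and -0.13, and the main fit did not pair pools by number. The XX pools were not checked in this way. Ndufb10, Rchy1 and H4c6 passed in all 17 alternatives and Kptn in all 16 in which it was tested, Id2 and Echdc3 in 15 of 17, Upp2 in 8 of 16 and Anxa1 in 6 of 16. Genes with 16 alternatives were too dim for the setting of probes brighter than the median. None of the genes named by rule changed sign. Signs of the genes named after their values were seen are not reported here. For XmO against XX the 167 calls (74 higher, 93 lower) became 94 with the authors' values, 70 (15 higher, 55 lower) with median scaling and 90 with the block, and from 27 to 585 leaving out 1 pool. For XpO against XX the 5 calls became 1 with the block, and from 1 to 97 leaving out 1 pool.

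Kidney less the other tissues called 3 probes, and 15 with the authors' values, 17 in the probes with values in every tissue, 25 with all arrays in 1 fit, 1 each against liver, muscle, brain, or liver and muscle, 3 with the block and 0 without centring, an alternative added after the data were seen, and from 0 to 7 leaving out 1 pool. Kidney-restricted probes, 0 in the main setting, were 4 with the authors' values, 3 in the probes with values in every tissue, 4 with all arrays in 1 fit and 1 against brain (Id2), and from 0 to 2 leaving out 1 pool. For both counts, kidney less the other tissues was tested with the authors' values only in the probes with values in every tissue. The muscle array of XpO pool 3 was included there. XmO against XpO in liver called 10 probes (2 higher, 8 lower), 5 with the authors' values and 365 with median scaling (8 higher, 357 lower), in muscle 3, with 6 under median scaling and 12 with the block, and in brain 4, with 2 and 1. Leaving out 1 pool gave 3 to 15, 2 to 6 and 1 to 5. The X-linked less autosomal median was 0.00462 among probes brighter than the median, of opposite sign, and from -0.0126 to 0.006 leaving out 1 pool (0.006 without XpO pool 3). The causes were not tested. Probes near background, such as those of Piwil1, Anxa1, Kptn and Elf4, limit what a small difference can show.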

Other observations

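A few probes were switched between background and a clear signal by pool, mostly the same pools in every tissue measured. They were noticed among the 37 largest kidney differences and chosen after their values were seen. Ntpcr was at background in XX pool 3 and in all XpO pools and was clearly above it in XX pools 1 and 2 and in all XmO pools. Its log2 signal in XX pool 3 was 5.56 in kidney, 5.60 in liver, 5.58 in muscle and 5.55 in brain, and in XX pool 1 it was 7.95, 8.24, 8.88 and 8.67. Msmo1, a sterol methyl oxidase of cholesterol synthesis on chromosome 8, was low in XX pool 3 (5.72 in kidney, 5.90 in liver, 5.78 in muscle and 5.55 in brain) and in XpO pool 3 (5.71 in kidney, 5.85 in liver and 5.68 in brain). Its other 7 pools read 8.48 to 9.63 in kidney. Csrp1, on chromosome 1, was low in XX pool 1, XpO pool 1 and XpO pool 3, at 5.90, 5.73 and 5.56 in kidney and 5.88, 5.85 and 5.91 in liver, with XpO pool 2 between at 7.81 and 7.09. In muscle XX pool 1 stood higher, at 7.44. Each of these groups of low pools held XX and XpO pools, which share a cross, and no XmO pool. These probes were taken from those with large positive XmO minus XpO differences, a choice that favours low XpO and high XmO pools. The absence of XmO pools among the low ones is therefore no separate result. The XmO minus XpO difference of Ntpcr was 1.84 in kidney, 1.88 in liver, 2.27 in muscle and 2.03 in brain, none past the threshold. The part of the cross in these values was not tested.

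Fbxw5, an F-box gene, followed pools across tissues only in part. In kidney XX pool 3 and XmO pool 2 read 10.64 and 11.18 and the other 7 pools 5.80 to 6.04. In liver XmO pools 2 and 3 and XpO pool 3 were high, at 10.48, 10.50 and 10.50. Every brain pool was bright, with the highest values in XX pool 3 (13.27) and XmO pool 2 (13.84) and 11.66 to 12.50 in the others. Every usable muscle pool was low, at 5.95 to 6.33.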
